A study of Mus musculus with 241 samples.

Results

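The cytosolic ribosomal protein genes encode the proteins of the large and the small subunit of the ribosome in the cytoplasm. They were taken by symbol: Rpl or Rps followed by a number, with paralogs that end in a, x, l or y, besides Rplp0, Rplp1, Rplp2 and Rpsa, leaving out pseudogene symbols and the Rps6k kinases. By this rule the bulk table held 85 of its 24506 genes (52 of the large subunit and 33 of the small), and the droplet single-cell (10x) matrices held 84 of 27998, of which 83 symbols were in both. The rule used no measured value. Of the 85 bulk members, 82 passed the filter on low values (over 1 FPKM, fragments per kilobase of gene model scaled to the library's depth, in at least 2 libraries). Rpl3l, Rpl10l and Rpl32l did not pass. Of the 84 members in the 10x data 81 passed the count filter, and Rpl3l, Rpl10l and Rpl39l did not.

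All cells came from the thymus of C57BL/6 mice and were sorted as lineage-negative, 7AAD-negative (live), CD44+ Kit+ pro-T cells, the early thymic progenitors (ETP) and the DN2 cells that follow them. The 12 bulk libraries came from mice of the genotype Bcl11byfp/yfp, a YFP reporter at Bcl11b that every bulk population carried. They were Flt3+ ETP (CD25- Flt3+, 2 libraries), Flt3- ETP (CD25- Flt3-, 2), total ETP (CD25-, 2), Bcl11b- DN2a (CD25+ YFP-, 3) and Bcl11b+ DN2a (CD25+ YFP+, 3). One library of each population except total ETP was made with the low-input SMART-Seq v4 kit and Nextera XT, and the other 8 with NEBNext Ultra. The 2 10x libraries and the single cells from the C1 chip came from wild-type (WT) mice sorted only to Lin- 7AAD- CD44+ Kit+, so their stages were set here from transcripts, and no label gives the animals' age, number or pooling. P-values over the bulk libraries measure the spread between them, which may be technical. In the 10x tests the library was a block. Their p-values and SEs come from the spread left among stage sums of 2 libraries, not from a spread between animals.

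As background, ribosomal proteins are made in near-equal numbers, and most of their mRNAs begin with a run of pyrimidines, the terminal oligopyrimidine (TOP) tract, through which mTOR and the LARP1 protein control their translation together. Free Rpl5, Rpl11 and Rpl23 bind Mdm2 and stabilize p53. Loss of Rpl22 is known to block development of alpha-beta T cells through p53, and the Rpl22 protein represses the mRNA of its paralog Rpl22l1.

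Promoter sequence was at hand for 64 of the 85 bulk members (RefSeq, GRCm38.p6, 250 bases before to 50 after the annotated start, first window of each gene). A run of 8 or more C or T within 50 bases of the start, on the gene's strand, was present in 81.25% of these members and in 37.7% of all 27025 gene windows. The letters CTTTCC lay within 20 bases of the start in 15.6% of members and 1.898% of all windows. CCGGAAG, the letters of an Ets site, were found on either strand in 39.1% of members and 9.12% of all windows, and AAGATGGC, the letters of a YY1 site, in 7.81% and 2.88%. TATAAA was found in 10.9% of members and 14.2% of all windows, and CACGTG, a site of Myc-type factors, in 7.81% and 7.24%. Motifs were searched separately, so matches may overlap, and a match is only a match of letters. The sequences shown run from 60 bases before to 20 bases from the start, with the pyrimidine run nearest to the start in capitals. They belong to Rpl22 and Rpl22l1, to Rps27 and Rps27l, and to Rpl4 and Rpl7l1, the members whose values are described most fully or which lacked a run.
Rpl22 (chr4:152325666-152325745, plus strand): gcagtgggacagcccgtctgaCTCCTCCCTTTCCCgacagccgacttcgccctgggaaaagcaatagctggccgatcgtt
Rpl22l1 (chr3:28805448-28805527, plus strand): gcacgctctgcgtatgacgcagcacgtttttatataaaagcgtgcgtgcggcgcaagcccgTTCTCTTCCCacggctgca
Rps27 (chr3:90213629-90213708, minus strand): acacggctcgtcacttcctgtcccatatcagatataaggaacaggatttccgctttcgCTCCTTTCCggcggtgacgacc
Rps27l (chr9:66946026-66946105, plus strand): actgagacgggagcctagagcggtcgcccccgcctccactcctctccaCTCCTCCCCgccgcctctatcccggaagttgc
Rpl4 (chr9:64173327-64173406, plus strand): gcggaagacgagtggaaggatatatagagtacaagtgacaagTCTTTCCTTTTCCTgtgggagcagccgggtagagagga
Rpl7l1 (chr17:46782637-46782716, minus strand): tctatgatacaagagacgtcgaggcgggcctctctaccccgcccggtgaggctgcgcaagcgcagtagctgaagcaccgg
The run was 14 bases long in Rpl22 and in Rpl4, 10 in Rpl22l1 and 9 in Rps27 and Rps27l. Counted from the annotated start, it began at -39 in Rpl22, -18 in Rpl4 and -12 in Rps27l, and ended before the start. It began at -2 in Rps27 and at 1 in Rpl22l1. Whether any of these runs is the TOP tract of its mRNA was not tested. Rpl7l1 had none, and of the 6 stretches shown only that of Rpl22l1 holds TATAAA.

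The bulk libraries held 21199719 to 38536633 reads on genes. The gates were reflected in the gate genes: Flt3 was at 61.9 and 78.5 FPKM in Flt3+ ETP against 19.3 and 24.9 in Flt3- ETP, Il2ra (CD25) was at 183.6 to 301 in the 6 DN2a libraries against 1.02 to 18.4 in the 6 ETP libraries, and Bcl11b was at 16.1 to 44.3 in Bcl11b+ DN2a against 0.60 to 6.11 in Bcl11b- DN2a. Markers of granulocytes and monocytes were also present (8 genes, Elane, Prtn3 and S100a8 among them): their summed FPKM was 922 and 1725 in Flt3- ETP, 236 and 343 in Flt3+ ETP, 475 and 456 in total ETP, 164.4 to 241 in Bcl11b- DN2a and 23.4 to 72.6 in Bcl11b+ DN2a.

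Ribosomal protein genes took 7.93% to 17.1% of the gene reads in the 8 NEBNext libraries and 3.37% to 4.07% in the 4 SMART-Seq libraries. Within NEBNext the share was 10.5% in Flt3+ ETP and 17.1% in Flt3- ETP. It was 8.94% and 8.28% in total ETP, 9.73% and 8.39% in Bcl11b- DN2a, and 10.3% and 7.93% in Bcl11b+ DN2a. By library number the NEBNext libraries fall in a first series, at 9.73% to 17.1%, and a second, at 7.93% to 8.94%. Total ETP was only in the second, and the NEBNext libraries of Flt3+ and Flt3- ETP only in the first. Population and series cannot be told apart between these. The NEBNext library of Flt3- ETP stood apart from the other 7, which lay between 7.93% and 10.5%. Within SMART-Seq the same population was again the highest, at 4.07%, with Bcl11b- DN2a at 3.83%, Bcl11b+ DN2a at 3.43% and Flt3+ ETP at 3.37%. These populations have a single SMART-Seq library each, so this order has no spread of its own. In bulk RNA, fewer cells of a type and less RNA per cell cannot be told apart.

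**Figure D1:**
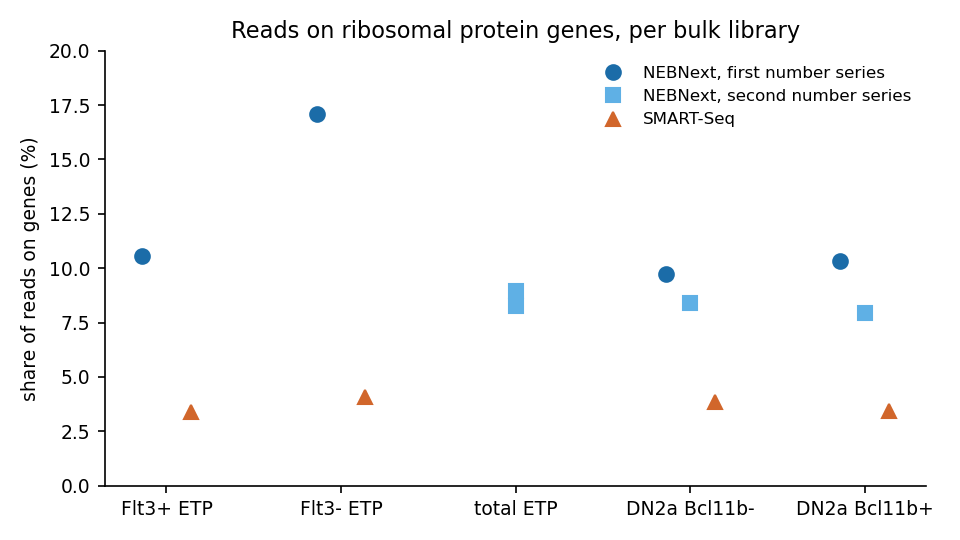
Share of gene reads on the 85 ribosomal protein genes (%, vertical axis) in each of the 12 bulk libraries, by population, with circles and squares for NEBNext libraries of the first and second library-number series and triangles for SMART-Seq. The SMART-Seq libraries lie between 3.37% and 4.07%, and the NEBNext library of Flt3- ETP, at 17.1%, lies above all others.

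Almost every member differed between the kits. The SMART-Seq libraries also form a number series of their own, so kit and series cannot be told apart. With populations held in the model, 78 of 82 members were lower in SMART-Seq and 2 were higher (limma, with a threshold of 0.05 on p-values adjusted by Benjamini and Hochberg's method), where 38.7% of the 12112 genes tested were called lower and 39.8% higher. The median member difference was -1.51 on the log2(FPKM + 1) scale, against 0.01 over all genes tested. Rps12, a protein of the small subunit, was at 1270 to 3548 FPKM in the NEBNext libraries and 156.5 to 211.1 in SMART-Seq, with no overlap, a difference of -3.45 ± 0.14 (SE, 4 libraries against 8, adjusted p = 3.9e-09). Rps21 (-3.29), Rpl28 (-3.20), Rps28 (-2.71) and Rpl12 (-2.61) followed. The 2 members that were higher with SMART-Seq were both paralogs: Rps27l, by 1.78 ± 0.10 (adjusted p = 2.26e-08), and Rpl7l1, by 1.04 ± 0.10 (adjusted p = 1.57e-06). Rpl13 (-0.23) and Rps4l (-0.12) were not called.

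The kit difference of members was not ordered by the length of the gene model (Spearman's rho 0.19 across 82 members, which share libraries and are not independent). Among genes at 100 FPKM or more in NEBNext, members with models under 600 bases had a median kit difference of -1.78 (33 genes) and the other genes of that length 0.43 (59 genes). At 1000 to 2000 bases the medians were -1.36 (15 members) and 0.67 (other genes). Other mRNAs with TOP tracts were also lower with SMART-Seq, 16 of 21 tested with 2 higher and a median of -1.19, among them the elongation factors Eef2 (-3.51) and Eef1a1 (-2.09). The mRNAs for proteins of the mitochondrial ribosome were higher, 74 of 78 with none lower and a median of 1.27, among them Mrpl18 (1.91), Mrps14 (1.91) and Mrpl42 (1.97). Of the nucleolar factors that build ribosomes, 14 of 35 were higher and 14 lower.

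**Figure D2:**
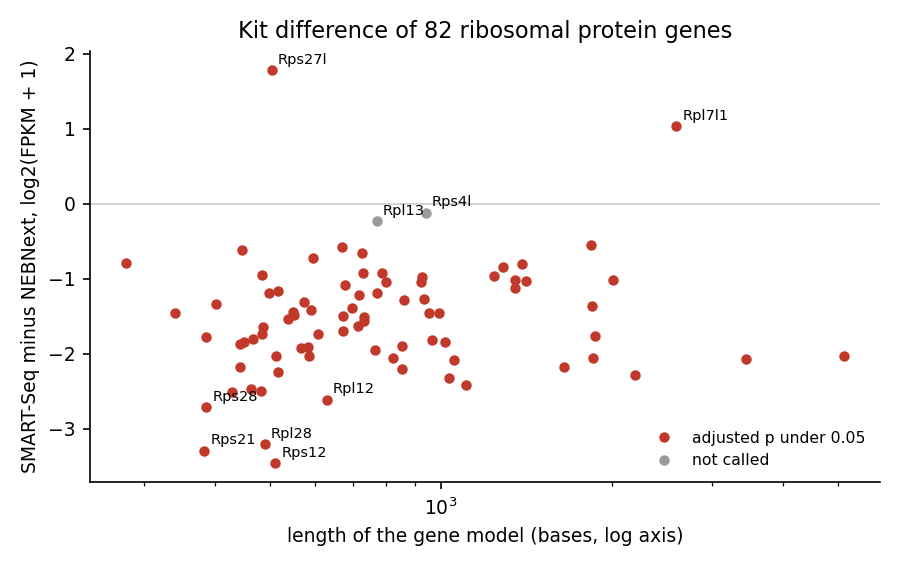
Fitted kit difference (SMART-Seq minus NEBNext, log2(FPKM + 1), vertical axis) of the 82 members tested against the length of the gene model (bases, log axis), with called members in red. All but Rps27l (1.78) and Rpl7l1 (1.04) lie below 0, at every length.

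Levels also differed between members. By mean FPKM over the 12 libraries the highest were Rpl32 (1851), Rps9 (1698), Rplp1 (1665), Rpl41 (1664) and Rps3a1 (1661), and the lowest of those that passed the filter were Rpl39l (0.73), Rps4l (5.89), Rpl7l1 (51.8), Rps15a (103.2) and Rpl21 (123.6). The model of Rps15a is listed at 5127 bases, the longest of all members, which lowers a value per kilobase. Ranks of members were only in part shared between kits (Spearman's rho 0.60 across 82 members) and between NEBNext FPKM and 10x counts (0.48 across 81). How reads shared with the many processed copies of these genes were assigned is not given in the sources used here, so the level of a single member is uncertain.

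Between Flt3- and Flt3+ ETP, 78 of 82 members had positive fitted changes, with a median of 0.42 against -0.15 over all genes tested, but none passed the test (limma), where 0.685% of all genes were called. At an unadjusted p under 0.05, 34 members were higher and none lower (17.5% of all genes passed that limit in either direction). edgeR on reads recovered from the FPKM also called no member. The largest positive values were for Rpl37a, Rps21, Rpl38, Rpl41 and Rpl36a, all short proteins. Rpl37a was at 1013 FPKM in Flt3+ ETP and 3127 in Flt3- ETP with NEBNext, and at 299 and 412 with SMART-Seq, a fitted change of 1.04 ± 0.30 (SE, 2 libraries against 2, adjusted p = 0.16). Rpl41, the shortest ribosomal protein, was at 1987 and 4796 with NEBNext and at 598 and 771 with SMART-Seq (0.82 ± 0.29, adjusted p = 0.21). Both kits put Flt3- ETP higher for these genes, and the NEBNext pair differed more.

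Within NEBNext the median member difference was 0.59 (75 of 82 positive, middle 80% of members 0.01 to 1.09), and within SMART-Seq 0.26 (79 of 82 positive, 0.18 to 0.38). Without the NEBNext Flt3- ETP library the fitted median fell to 0.15, and without the SMART-Seq one it was 0.71 with 32 members called higher, where 2.73% of all genes were called higher and 10.5% lower. With a block for the library-number series, 15 members were called higher, where 1.79% of all genes were called higher and 3.06% lower. In the NEBNext pair, the median difference of other genes at 100 FPKM or more fell with length, from 0.60 under 600 bases to 0.28 at 600 to 1000, -0.09 at 1000 to 2000 and -0.30 above. Members did not follow that order, with medians of 0.76 (33 members), 0.44 (27), 0.44 (15) and 0.79 (4) in the same bins. The rise of the myeloid list in the same comparison (7 of 8 genes called higher, Elane by 6.204 ± 0.40) was present in both kits. Erythroid and mast cell genes were higher as well, with 3 of 5 tested called (Cpa3, a mast cell protease, by 2.67 ± 0.21) and a summed level of 35.4 and 49.3 FPKM in Flt3+ ETP against 172.7 and 328 in Flt3- ETP. The 10 genes of mitosis all had negative values, with a median of -0.72 and none called. The part of these 3 lists in the ribosomal protein values was not tested.

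From Flt3- ETP to Bcl11b- DN2a the values ran the other way. The median member change was -0.51 (80 of 82 negative) against 0.12 over all genes, and 1 member was called, Rpl22, where 2.35% of all genes were called lower and 1.62% higher, 3.97% in all. Both comparisons use the same Flt3- ETP libraries, so they are not independent. Rpl22 was at 347 and 50.7 FPKM in the NEBNext and SMART-Seq libraries of Flt3- ETP, and at 175.7, 176.8 and 42.4 in Bcl11b- DN2a, a change of -0.66 ± 0.15 (SE, 3 against 2, adjusted p = 0.035). The Bcl11b- DN2a library was lower within each kit. Rpl22 kept its call in 8 alternatives and lost it in 8. Its change lay between the member median of -0.51 and the lowest member value of -1.21. At an unadjusted p under 0.05, 51 members were lower and none higher, where 25.1% of all genes were under it in either direction. Without the NEBNext Flt3- ETP library no member was called and the median was -0.19. Without the SMART-Seq one, 45 were called lower, where 4.95% of all genes were called lower and 16.1% higher. Rpl4 and Rpl6, of the large subunit and named after their values were seen, barely moved (-0.10 and -0.04). Rps4l (-1.21), Rpl37a (-1.05), Rpl36 (-1.03) and Rps21 (-1.03) had the lowest fitted values, none of them called. All 8 myeloid markers were called lower here, and their part in these values was not tested.

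Bcl11b+ and Bcl11b- DN2a were the closest pair. No member was called (limma), where 1.15% of all genes were called higher and 1.64% lower (2.79% in all), and none was under 0.05 unadjusted, although 11.5% of all genes were. The median member change was -0.06 against -0.04 over all genes, and fitted values ran from -0.18 (Rps2) to 0.20 (Rpl39l). With the paired libraries as a block the calls over all genes went from 338 to 682, with again no member, and edgeR on recovered reads called none either. Within the pairs the median member difference was 0.07 and -0.07 for the 2 NEBNext pairs and -0.17 for SMART-Seq. Over the same libraries 4 of 10 genes of mitosis were called higher in Bcl11b+ cells. Of 20 regulators of ribosome production tested, 1 was called lower and 0 higher. It was Mycn, a Myc family factor that drives ribosome production (-0.69 ± 0.16, adjusted p = 0.037 by limma).

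Against total ETP, Bcl11b- DN2a had 3 members called higher and none lower, where 9.78% of all genes were called higher and 15.6% in either direction, so the share of members was below the background. These were Rpl8 (0.77 ± 0.21, adjusted p = 0.034), Rpl27 (0.59 ± 0.18, adjusted p = 0.045) and Rpl29 (0.58 ± 0.18, adjusted p = 0.049), all of the large subunit. Rpl8 was at 862 and 717 FPKM in total ETP and at 1425, 1122 and 401 in Bcl11b- DN2a, the last being SMART-Seq. Total ETP had no SMART-Seq library, and with the library-number series as a block or edgeR on recovered reads no member was called, where 7.76% and 11.02% of all genes were. The median member change was 0.18, and -0.01 with that block. Quantile normalization gave 6 members higher and 6 lower, where 22.3% of all genes were called. The mRNAs for proteins of the mitochondrial ribosome stood apart from the members here, with 20 of 78 called higher and none lower (Mrpl58 by 0.72 ± 0.13, Mrps26 by 1.05 ± 0.21). That list was counted in the main fit only, and its median kit difference was 1.27. In the second number series its summed FPKM was 2014 in Bcl11b- DN2a and 1758 and 1643 in total ETP. The NEBNext library of Bcl11b- DN2a in the first series had 2278. Of the 20 regulators of ribosome production, 2 were called higher, Mycn (0.58 ± 0.18) and Mnt (0.56 ± 0.17), and none lower.

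**Figure D3:**
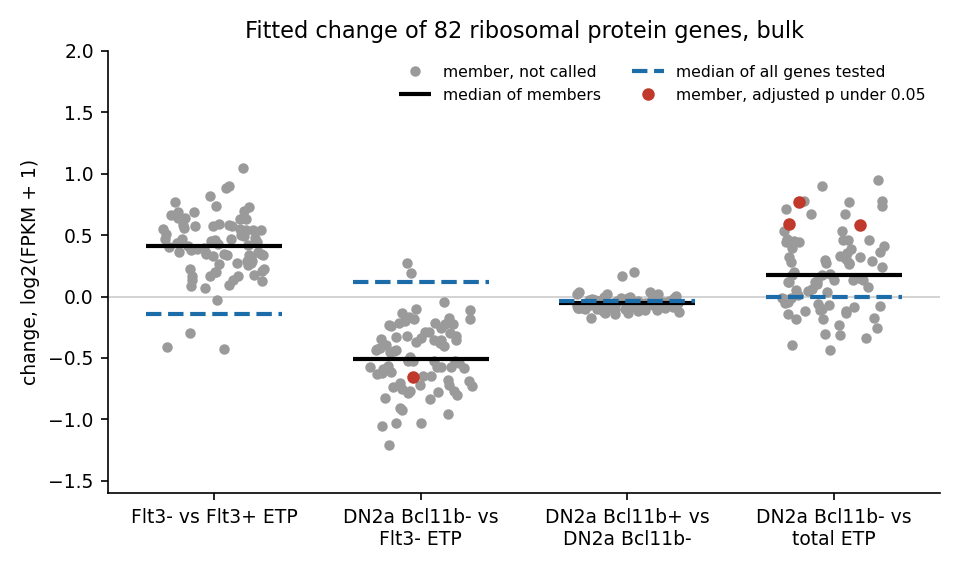
Fitted change of each of the 82 members tested (points, log2(FPKM + 1)) in the 4 comparisons of bulk populations, with called members in red, the median of members as a solid line and the median of all genes tested as a dashed line. The member median lies above that of all genes in Flt3- against Flt3+ ETP (0.42 against -0.15) and below it in Bcl11b- DN2a against Flt3- ETP (-0.51 against 0.12), and only 1 and 3 points are red.

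Once the mean of each kit and the member median of each library were taken out, the residual SD of a member over the 12 libraries had a median of 0.20 on the log2 scale. The members that moved most apart from the rest were Rps4l (0.80), Rpl39l (0.53), Rpl7l1 (0.45), Rpl36 (0.44), Rps27l (0.44) and Rpl22l1 (0.40), 5 of them paralogs of another member. A member that stays level while the others move also gets a high SD here, and Rps27l stayed at 130.1 to 167.8 FPKM in NEBNext. Rpl39l and Rps4l were low (means of 0.73 and 5.89 FPKM), where this scale is noisy. Rps4l, a paralog of Rps4x, was at 16.4 and 9.74 FPKM in Flt3+ ETP and 12.98 and 6.33 in Flt3- ETP. It was at 5.54, 1.52 and 4.30 in Bcl11b- DN2a, at 5.26, 1.29 and 4.07 in Bcl11b+ DN2a and at 1.86 and 1.47 in total ETP. The Flt3-sorted ETP libraries were all higher than the DN2a libraries, but total ETP, which holds both kinds of ETP, was as low as the DN2a libraries of its own number series (1.52 and 1.29). No comparison called Rps4l.

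Rpl22 and Rpl22l1 were both well expressed. Rpl22l1 was at 262, 597, 420, 491, 300, 334, 284 and 358 FPKM in the NEBNext libraries of Flt3+ ETP, Flt3- ETP, total ETP (2), Bcl11b- DN2a (2) and Bcl11b+ DN2a (2), and at 153.7, 175.4, 196.1 and 193.1 in SMART-Seq in the same order of populations. The ratio of Rpl22l1 to Rpl22, per length, was 1.27 to 2.12 in NEBNext and 3.46 to 5.17 in SMART-Seq. It was lowest in Flt3+ ETP within NEBNext and in Flt3- ETP within SMART-Seq, so the kits gave different orders. Rps27l, which p53 is known to induce, was at 130.1 to 167.8 FPKM in NEBNext and 403 to 540 in SMART-Seq, against 859 to 2338 and 396 to 634 for Rps27. In the other pairs the paralog was low or near 0: Rpl39l was at most 4.28 FPKM, Rpl3l and Rpl10l were at most 1.09 and 1.10, and Rpl7l1 was at 29.6 to 87.5 against 541 to 1533 for Rpl7.

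In the 10x data, which count mRNA molecules by unique molecular identifiers (UMIs) at the 3' end, ribosomal protein genes took 41.3% and 39.5% of all UMIs in the 2 libraries (43734920 UMIs over 5006 barcodes and 55522900 over 8867, with 57 barcodes in both). Each cell was thinned to 4000 UMIs, which left out 250 and 1456 shallower cells. Cells were then put in stages: Flt3+ Il2ra- (4.86% and 5.33% of cells, with a Flt3 UMI and none of Il2ra or Bcl11b), Il2ra+ Bcl11b- (1266 and 1700) and Il2ra+ Bcl11b+ (665 and 1040). The other 2472 and 3866 cells, 53.4% and 55.4%, met none of these definitions. These stages rest on 1 or a few UMIs and are ranges, not sorted populations.

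The share of UMIs on members fell through the stages in both libraries. In library 1 it was 43.9% (95% exact binomial interval 43.79% to 43.9998%) in Flt3+ Il2ra-, 40.4% (40.4% to 40.5%) in Il2ra+ Bcl11b- and 38.7% (38.6% to 38.7%) in Il2ra+ Bcl11b+. In library 2 it was 41.4% (41.3% to 41.5%), 38.8% (38.7% to 38.8%) and 37.4% (37.3% to 37.4%). These intervals cover counting error only. Without thinning the shares were 43.7%, 40.8% and 38.7% in library 1 and 41.4%, 39.1% and 37.5% in library 2. Library 2 was lower than library 1 at each stage, and the order of stages was the same in both. Both subunits shared in it: in library 1 the large subunit went from 24.7% to 22.6% and 21.7%, and the small from 19.2% to 17.8% and 16.99%. Median depth before thinning was 8730 to 8964 UMIs in the stages of library 1 and 6324 to 6944 in those of library 2. After thinning, cells in no stage had shares of 42.7% in library 1 and 40.5% in library 2. Both lay between those of Flt3+ Il2ra- and Il2ra+ Bcl11b- cells. Stages were set from UMIs within the same fixed total per cell, so more member UMIs leave fewer for Flt3, Il2ra and Bcl11b. The stage rule is therefore not independent of the share, and its part in the order of stages was not tested.

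Genes of mitosis moved as well. Their summed level (10 genes) was 436, 443 and 715 CPM (UMIs scaled to a common total per library and stage) in library 1 and 565, 428 and 560 in library 2. In cells with no UMI of Mki67, Top2a or Cdk1 the order remained, at 44.7%, 41.3% and 39.7% in library 1 and 42.1%, 39.4% and 38.1% in library 2. The summed level of the 8 myeloid markers fell from 273 and 303 CPM in Flt3+ Il2ra- to 173.6 and 176.6 and to 61.7 and 57.7. In cells without a UMI of Mpo, Elane, Prtn3, Cd3e, Cd3g, Cd79a or Nkg7 (the marker filter), the shares were 44.9%, 40.4% and 38.7% in library 1. In library 2 they were 41.6%, 38.9% and 38.1%. This left 46 and 69 cells in Flt3+ Il2ra-, as 68.1% to 81.5% of the cells of a stage had such a UMI. Cd3e and Cd3g are T-lineage genes that rose from Il2ra+ Bcl11b- to Il2ra+ Bcl11b+ (3.58 ± 0.11 and 3.81 ± 0.07 by edgeR). The filter therefore also takes out cells of the T lineage, not only other cell types. That filter holds no erythroid or mast cell gene. The summed level of those 7 genes rose along the same stages, from 50 and 46.4 CPM in Flt3+ Il2ra- to 267 and 212.9 in Il2ra+ Bcl11b- and 288 and 311 in Il2ra+ Bcl11b+ (Cpa3 by 2.21 ± 0.12 in the first step by edgeR), with 3 to 6 of the 7 at 0, and its part in the shares was not tested.

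**Figure D4:**
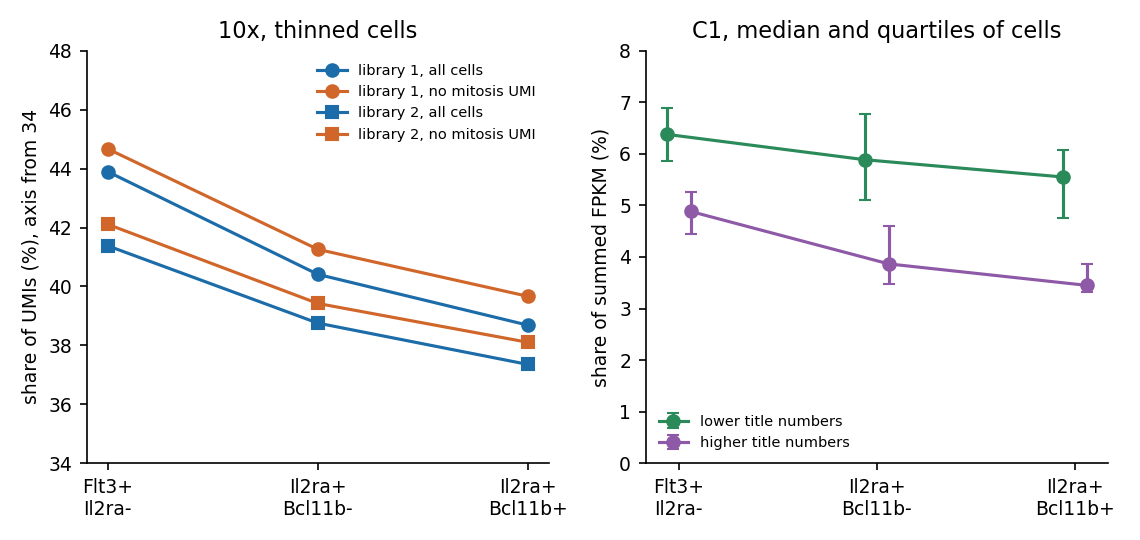
Left, share of UMIs on ribosomal protein genes (%, axis from 34) at 3 stages in each 10x library after thinning to 4000 UMIs, in all cells and in cells with no UMI of Mki67, Top2a or Cdk1. Right, share of summed FPKM (%) in C1 cells, as the median and quartiles of cells with lower and higher library numbers in their titles. The share falls from Flt3+ Il2ra- to Il2ra+ Bcl11b+ in each line, from 43.9% to 38.7% in library 1 and from 6.38% to 5.55% in C1 cells with lower numbers.

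Gene by gene, 73 of 81 members tested were lower in Il2ra+ Bcl11b- than in Flt3+ Il2ra- cells and 1 was higher (edgeR's quasi-likelihood test on UMIs summed per library and stage, with the library as a block, Benjamini-Hochberg adjusted p under 0.05). Of all 10636 genes tested, 7.26% were lower and 4.89% higher. Members are abundant, and of the other genes over 500 CPM, 33.6% were lower and 22.4% higher. The median member change was -0.19 on the log2 scale against 0.00 over all genes. With scaling by library size alone, 64 members were lower and 4 higher, and over all genes 611 were lower and 780 higher in place of 772 and 520. Rpl4, of the large subunit, was at 4329 and 4782 CPM in Flt3+ Il2ra- cells of the 2 libraries and at 3591 and 4115 in Il2ra+ Bcl11b- cells, a fitted change of -0.32 ± 0.03 (SE, 2 libraries, adjusted p = 1.47e-21). Rpl22 went from 2022 and 1860 to 1735 and 1615 (-0.29 ± 0.03, adjusted p = 1.08e-13). Rps15, of the small subunit, went from 4243 and 4083 to 3725 and 3513 (-0.28 ± 0.03), and in each library the Il2ra+ Bcl11b- value was the lower for these 3.

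Rps27l was the member that rose, from 699 and 590 CPM to 779 and 829 (0.27 ± 0.05, adjusted p = 8.14e-07). Library 2 carried most of this: the change was 0.43 in library 2 and 0.07 in library 1 after scaling. The SE of 0.05 is that of the fit with the library as a block, and it does not cover this gap. Rps27, the paralog of Rps27l, fell by 0.14 ± 0.03 (7352 and 5753 to 7222 and 5410). Rpl22l1 was not called (2493 and 2785 to 2824 and 3058, 0.08 ± 0.03, adjusted p = 0.09), while Rpl22 fell, so that the ratio of the pair went from 1.23 and 1.497 to 1.63 and 1.89. Rps24, the remaining member with a positive value (0.07 ± 0.03, adjusted p = 0.059), Rpl41 (-0.02), Rpl38 (-0.04), Rpl30 (-0.09), Rpl6l (-0.07) and Rpl7l1 (-0.09) were not called. The mRNAs for the proteins that bind Mdm2 fell with the family, of which 73 of 81 members were called lower with a median of -0.19. Rpl5 fell by 0.19 ± 0.04, Rpl11 by 0.23 ± 0.03 and Rpl23 by 0.24 ± 0.03. So did Rps6, the substrate of S6 kinase (-0.15), Rps19, mutated in Diamond-Blackfan anemia (-0.17), Rplp0 of the stalk that recruits elongation factors (-0.15), Rpsa (-0.28) and the ubiquitin fusion Rps27a (-0.24).

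From Il2ra+ Bcl11b- to Il2ra+ Bcl11b+ cells, 47 of 81 members fell and none rose, where 7.49% of all genes were called lower and 7.18% higher, and 26.4% of the other abundant genes lower. At an unadjusted p under 0.05, 62 were lower and none higher, where 24.8% of all genes were under it. DESeq2 called 31 members lower and none higher, where it called 303 genes lower and 301 higher. The median change was -0.08 against 0.00 over all genes. Among those that fell were Rps24, from 7721 and 6936 to 6895 and 6335 (-0.17 ± 0.03, adjusted p = 4.91e-09), Rps3 (-0.16 ± 0.03) and Rpl22l1 (-0.14 ± 0.03, adjusted p = 4.62e-05). Rpl6l (-0.18 ± 0.06, adjusted p = 0.048) lost its call in 7 of 9 alternatives with a test, where the adjusted p ran from 0.0165 to 0.813. In the first step Rps24 and Rpl22l1 had positive values, and each was called higher in 4 of 9 alternatives with a test, at up to 0.15 and 0.16. The difference between the 2 steps was not tested. Rpl11 (-0.02), Rplp0 (-0.01), Rpsa (-0.03) and Rps27l (-0.04) were not called. The 2 steps share the Il2ra+ Bcl11b- cells.

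These calls rest on pairing stages within a library. Without the library as a block 1 member was called in the first step and none in the second, where 5.03% and 5.27% of all genes were, with medians of -0.19 and -0.09. With the marker filter, 51 members were called lower and 1 higher in the first step and none in the second (medians -0.19 and -0.06). Of all genes, 3.36% and 1.498% were called there, with fewer cells summed.

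**Figure D5:**
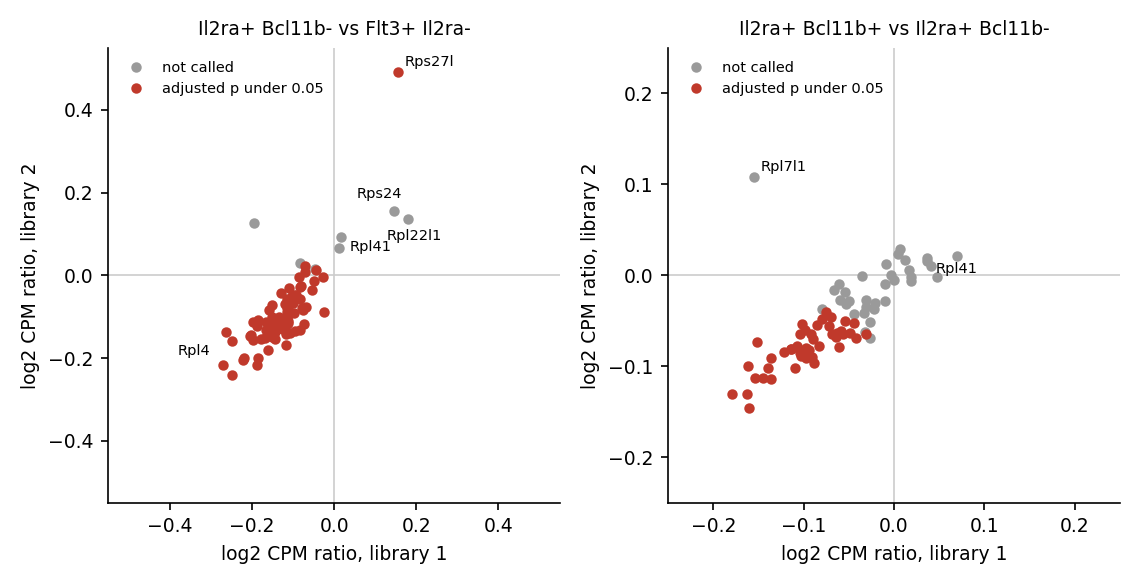
Log2 ratio of CPM in library 2 (vertical axis) against library 1 (horizontal axis) for the 81 members tested, for the first step (left) and the second (right), before scaling by TMM factors, with called members in red. In the left panel 70 members lie below 0 in both libraries and 5 above 0 in both, Rps27l highest in library 2, and in the right panel 66 and 8.

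Among other genes of translation, most with TOP tracts fell in the first step, and few genes of ribosome building were called. Of 21 mRNAs with TOP tracts outside the ribosomal proteins, 17 were lower and none higher, with a median of -0.19, among them Eef1a1 (-0.31 ± 0.03), Eef2 (-0.33 ± 0.04), the initiation factor subunit Eif3e (-0.39 ± 0.05) and the poly(A)-binding protein Pabpc1 (-0.28 ± 0.04). In the second step 9 of 21 were lower, with a median of -0.07. Of 35 nucleolar and RNA polymerase I genes, 1 was lower in the first step, Npm1 (-0.32 ± 0.03), and no gene was called in the second. Of 76 mitochondrial ribosomal protein genes, 8 were higher and 1 lower in the first step (Mrps36 by 0.44 ± 0.11, Mrps12 by 0.38 ± 0.10) and 3 higher in the second (Mrpl52 by 0.41 ± 0.07). Among 20 regulators of ribosome production, Larp1 (0.49 ± 0.16) and Rptor, a subunit of mTORC1 (0.86 ± 0.28), were higher and Eif4ebp1 (-0.37 ± 0.13) lower in the first step. Mycn (-0.77 ± 0.08) and Eif4ebp1 (-0.43 ± 0.10) were lower in the second. Over all genes tested, 4.89% were called higher and 7.26% lower in the first step (12.1% in all). In the second, 7.18% were higher and 7.49% lower (14.7% in all). The regulators called were near those shares, so they show no change of that list.

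In the bulk data the order of Flt3+ ETP and DN2a cells differed between kits. Flt3- ETP had a higher share of ribosomal protein reads than every DN2a library of its kit (17.1% in NEBNext, 4.07% in SMART-Seq). The NEBNext library of Flt3+ ETP (10.5%) was also above the 4 NEBNext DN2a libraries (7.93% to 10.3%). It was close to those of its own number series (9.73% and 10.3%). Total ETP lay among the NEBNext DN2a libraries (8.94% and 8.28%). The SMART-Seq library of Flt3+ ETP was lower (3.37%) than those of DN2a (3.83% and 3.43%). In the 10x data Flt3+ Il2ra- cells had a higher share than both Il2ra+ stages in both libraries. Sorted gates and UMI stages are different populations, and the genotypes differ (Bcl11byfp/yfp and WT), so bulk and 10x orders were not compared by a test.

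In the C1 cells, which were sequenced along the whole mRNA and deposited as FPKM, the 88 members of that table's 43346 genes held a median of 5.18% of a cell's summed FPKM (1.91% to 13.2% over the cells with at least 1000 genes detected). Since the animals are not named for these cells, they count as 1 sample and no test was made. Cells of the Flt3+ Il2ra- stage had a median share of 5.87% (65 cells), Il2ra+ Bcl11b- cells 4.83% (94) and Il2ra+ Bcl11b+ cells 4.79% (29). The library numbers in the titles fell in 2 ranges with different levels. In the lower range the medians were 6.38%, 5.89% and 5.55% (34, 43 and 20 cells), and in the higher range 4.88%, 3.87% and 3.45% (31, 51 and 9 cells). The share in Flt3+ Il2ra- cells was the highest in each. Rps4l was above 1 FPKM in 18.5% of Flt3+ Il2ra- cells, 3.19% of Il2ra+ Bcl11b- cells and 6.90% of Il2ra+ Bcl11b+ cells. Rps27 had a median of 26.1 FPKM and was above 1 FPKM in 60.4% of cells, while Rpl4 had a median of 461 and Rpl7 of 813 FPKM.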

How the data were processed

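Bulk FPKM values were deposited by the authors per gene model, and 10x UMI counts as matrices of barcodes. C1 FPKM were deposited per cell. Per the submitters' processing notes STAR 2.4.0, RSEM 1.2.25, HOMER, SAMtools, edgeR 3.6.8 and Cell Ranger 2.0 were used with mm10, with no role given here. Members and lists were chosen with earlier results of these data known. Bulk values were tested as log2(FPKM + 1) with limma 3.58.1 (trend, population and kit as terms, all 12 libraries) on genes over 1 FPKM in at least 2 libraries. Fold changes on this scale understate low genes. Reads were also recovered from the FPKM (98.5% to 100% of values came out whole within 0.1 of a read, against 12.8% to 15.9% with a wrong step) for edgeR 4.0.16. 10x cells were thinned to 4000 UMIs, summed per library and stage, and tested with edgeR's quasi-likelihood test with the library as a block, DESeq2 1.42.0 being an alternative. No doublets were called or removed. Adjusted p-values are Benjamini-Hochberg over all genes tested, with a threshold of 0.05. Named genes were the paralog pairs, up to 5 called members with the largest rise and fall in a comparison, the 5 members with the highest and lowest mean FPKM, up to 4 called genes of a related list by smallest adjusted p, members with a known role beside the ribosome, and the gate genes. Members named without a call, such as Rpl37a, Rpl41, Rps24 and Rpl6, were chosen after their values were seen. Some members that this rule names are not reported here. The SMART-Seq columns name their population and carry no library number, and each was the one left for its population.

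Bulk libraries were numbered in 3 series. Libraries of Bcl11b+ and Bcl11b- DN2a with the same series deviated together from their population means once kit was removed (r = 0.56, 0.82 and 0.51). They were taken as pairs only in the alternative with a block for the series. The main fit has population and kit as terms and no pair. Flt3+ and Flt3- ETP have only 2 such pairs and total ETP has libraries of 1 series. With 2 libraries in a population the fit makes their deviations equal and opposite, so r was 0.10 in each pair and counts once. The fit ties deviations together in this way, and libraries of different series also reached high values. Flt3- ETP with NEBNext and Bcl11b- DN2a with SMART-Seq had r = 0.71, so these values do not test the pairing. In the 10x data the stages of a library come from the same sorted cells, so the library is a block. Alternatives were other scalings, pseudocounts, filters, thinning depths, cell sets and designs, and leaving out each library. The edgeR test on recovered reads, the 10x scaling without ribosomal protein genes, the pyrimidine run and 2 fits without the NEBNext Flt3- ETP library were chosen after seeing the data.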

Additional observations from a re-analysis of the deposited data

How the results depend on the processing

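The direction of the median member change was kept in the kit and 10x comparisons under every alternative run. In the kit comparison it was -2.08 when scaled without ribosomal protein genes, and leaving out each library gave -1.62 to -1.44 with 79 to 80 members called. For Flt3- against Flt3+ ETP the median was 0.12 with quantile normalization and 0.15 to 0.71 with a library left out. Members called were 15 with a replicate block by library-number series, 16 with only the populations compared and 0 to 32 with a library left out. For Bcl11b- DN2a against Flt3- ETP the median was -0.10 with quantile normalization, -0.19 with no kit term, -0.82 with NEBNext libraries only and -0.77 to -0.19 with a library left out. Members called were 2 with a pseudocount of 0.1, 0 with no filter, median-ratio scaling or no kit term, 4 when scaled without ribosomal protein genes or with only the populations compared, 24 with NEBNext libraries only, 19 and 14 with a replicate block by series or by label, and 0 to 45 with a library left out. For Bcl11b+ against Bcl11b- DN2a no alternative called a member, the replicate block included, and the median ran from -0.16 to 0.07 with a library left out. For Bcl11b- DN2a against total ETP the median was -0.29 with no kit term and 0.09 to 0.29 with a library left out. Members called were 0 with no filter, median-ratio scaling, no kit term, NEBNext libraries only, a replicate block by series or edgeR on reads, 12 with quantile normalization, 20 with a block by label, 1 with only the populations compared and 0 to 18 with a library left out. In the first 10x step the median was -0.11 with library size only, -0.16 with no filter and -0.21 to -0.17 with a library left out, and 1 member was called with no replicate block. In the second it was -0.06 with library size only or with the marker filter. It was -0.11 with no thinning or thinning to 2000 UMIs and -0.11 to -0.09 with a library left out. There 0 members were called with no replicate block and 0 with the marker filter, where fewer cells were summed, and 31 by DESeq2. Rpl41 turned from -0.02 to 0.06 with library size only in the first step (edgeR adjusted p = 0.028) and from 0.00 to -0.11 with thinning to 2000 UMIs in the second (adjusted p = 0.0042). Over all genes the calls ran from 7 to 1605 around 83, 35 to 2555 around 481, 4 to 682 around 338 and 55 to 3857 around 1895 in these 4 bulk comparisons, and from 289 to 2396 around 1292 in the first 10x step. In the second step 1561 genes were called (14.7% of those tested), against 1.498% of 8610 tested with the marker filter. With no replicate block 561 genes were called, and with no thinning 3052. The cause of these differences was not tested.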
